A study of Sus scrofa domesticus with 16 samples.

Results

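Gene expression was described in the adrenal glands of the 8 domestic pigs labelled low stress, out of 16 pigs in the series. These 8 animals were chosen by their label, which gives a mixing treatment with low aggressiveness and a low stress level. Each gland was measured on 1 Affymetrix Porcine Genome Array, a chip that reads transcripts with probe sets of short oligonucleotides. Unfamiliar pigs had been grouped in the experiment, and the submitters chose 2 groups of 8 that differed in aggression and plasma cortisol. The labels give the tissue as adrenal gland and a separate animal number for each array. They give no age, sex, breed or time of sampling. The other 8 animals were not compared here, so a gland of this group is described as it is, with no unstressed reference. Animals are named replicates 1 to 8 in accession order, which is only a name.

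The adrenal gland is 2 organs in 1 capsule. The cortex takes up cholesterol and turns it into cortisol, aldosterone and androgens, in a chain of reactions that begins in the mitochondria and is driven by ACTH, the pituitary hormone that acts through cyclic AMP. The medulla is made of chromaffin cells, which convert tyrosine to noradrenaline and adrenaline and store them in granules with chromogranins and neuropeptides. In RNA of a gland a smaller number of cells of a type and less RNA per cell cannot be told apart.

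Values are log2 of the MAS5 signal, the array maker's summary of a probe set's brightness, so that 1 unit is a doubling. A signal depends on how well the probes bind as well as on the amount of transcript, so a higher signal of one gene than of another does not by itself show more mRNA. The 23999 probe sets that are not controls gave 6765 named genes, with the brightest probe set standing for each gene. Of these genes, 4241 had a mean log2 signal of 8 or more (a signal of 256), and the spread between animals is described for them. The median of all probe set means was 7.05. Values are given as mean ± SD over the 8 animals, and having 8 arrays limits how precise they are. No label says how the samples were dissected.

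Technically, there were 2 sets of 4 arrays. Dap, a bacterial transcript added as a labelling control, had a mean signal of 2648 in replicates 1, 3, 6 and 8 (the high-spike set) and 336 in replicates 2, 4, 5 and 7 (the low-spike set). The labels do not mention these sets. The ratio of 3' to 5' signal for actin, a measure of RNA length, was 6.40 to 8.80 in the high-spike set and 9.97 to 21.9 in the low-spike set. The same ratio for GAPDH averaged 1.56 and 1.39. Pairs of arrays correlated at 0.902 to 0.974 across probe sets, with a median of 0.964 within a set and 0.938 between sets. The first principal component held 48.3% of the variance and separated the sets. Replicate 3 also stood apart at the bright end, with a highest signal of 26388 against 35939 to 41994 on the other arrays.

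The brightest named genes in the gland included those of protein synthesis, iron storage and steroid synthesis. The 25 named genes with the highest mean signal lay between 14.64 and 15.00. Of these, 11 encode cytosolic ribosomal proteins, the structural parts of the ribosome. The 13732 probe sets with no symbol were not ranked. On each array the highest signal, 14.69 to 15.36 in log2, lay above all 25 genes. First of the 25 was elongation factor 1 alpha, which brings aminoacyl-tRNA to the ribosome. It is named EF1ALPHA in the annotation and averaged 15.00 ± 0.20 (SD, n = 8). STAR, the carrier that moves cholesterol into the mitochondrion for steroid synthesis, was the seventh, at 14.86 ± 0.17 (SD, n = 8). FDX1, the ferredoxin that hands electrons to the mitochondrial P450 enzymes, was also among the 25, at 14.66 ± 0.19 (SD, n = 8). The others included FTH1 and FTL, the chains of the iron store ferritin, at 14.80 and 14.66, and A2M, a protease inhibitor of blood and tissue, at 14.89.

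Further members of the 25 were UBB (ubiquitin) at 14.89, HSPE1 (a mitochondrial chaperone) at 14.82 and SLC25A3 (the mitochondrial phosphate carrier) at 14.67. B2M, the light chain of class I antigen-presenting molecules, lay at 14.69, and SAT1, an enzyme of polyamine breakdown, also lay at 14.69. Among the 100 brightest genes, 53 encoded ribosomal proteins and 3 encoded respiratory chain or ATP synthase subunits, and the last of the 100 lay at 14.06. The SD between animals was 0.17 to 0.25 for the 25 genes. It includes shifts shared by the genes of an array, so it does not measure how firm this order is. Differences between genes within an array were not tested.

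**Figure D1:**
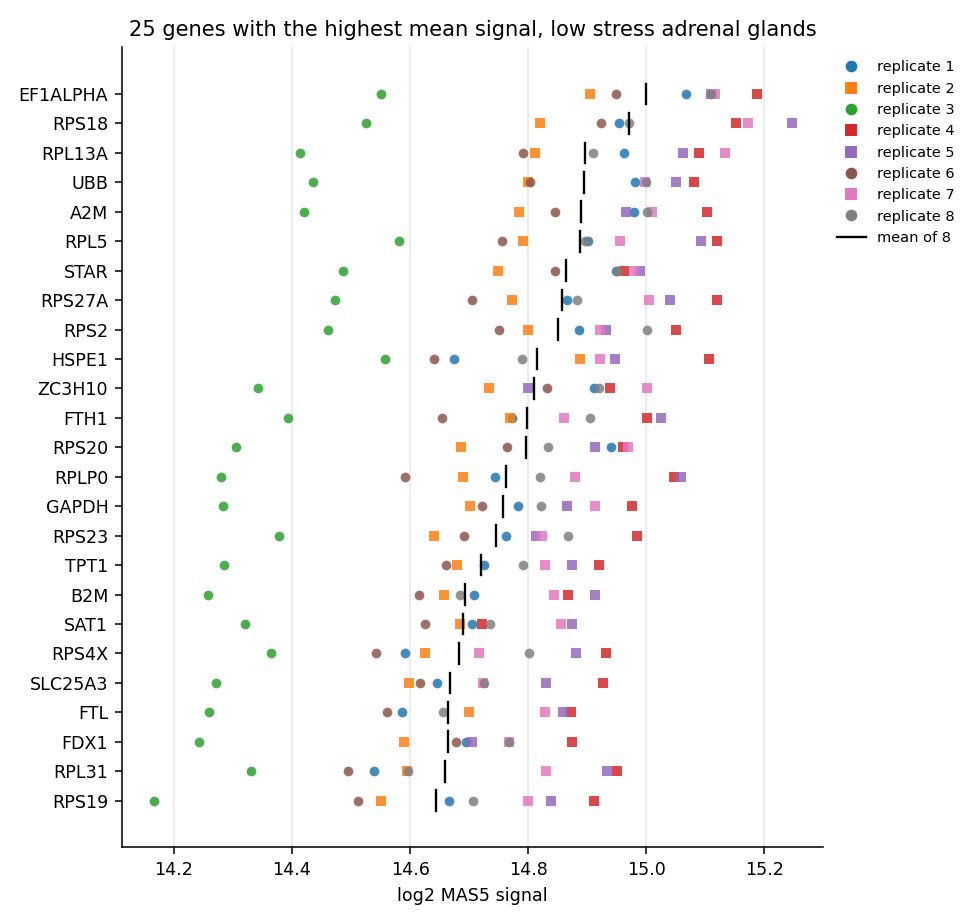
Log2 MAS5 signal of the 25 genes with the highest mean signal, 1 point per animal (circles, high-spike set; squares, low-spike set) and a bar at the mean of 8. Replicate 3 is the lowest point for 25 of 25 genes, and EF1ALPHA ranges from 14.55 to 15.19.

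Replicate 3 was the lowest animal for 25 of 25 of these genes, replicate 4 the highest for 16, replicate 5 for 6 and replicate 7 for 3. STAR gave 14.95, 14.75, 14.49, 14.96, 14.99, 14.85, 14.98 and 14.95 in replicates 1 to 8. The 7 animals other than replicate 3 thus lay within 14.75 to 14.99. After quantile normalization, which gives every array the same distribution of values, the median SD of the 25 genes fell from 0.205 to 0.0572, and replicate 3 was the lowest animal for 7 of the 25. The biological part of the spread of these genes was not tested.

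Most of the measured steroid synthesis enzymes had bright probe sets, and most varied little between animals. Of 27 genes on the list, 16 were measured, and 14 had a mean of 8 or more. Of the 16, 8 lay in the top 10% of all named genes by mean signal, where 10% of genes lie by definition. The median of the list was 11.96, against 8.87 over all named genes. The median SD of its 14 brighter genes was 0.19, against 0.24 over all named genes with a mean of 8 or more. Those genes are not matched to the list in brightness. Respiratory chain and ribosomal protein genes with a mean of 8 or more, also bright, had median SDs of 0.19 and 0.21.

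Of the 16 measured genes, those of the first steps had the brightest probe sets. CYP21A2, CYP11B1 and CYP11B2, enzymes of the last steps to cortisol and aldosterone, were not among the 16. Those steps are therefore not described. CYP11A1, the enzyme that cuts the cholesterol side chain to give pregnenolone, was 13.97 at the lowest, 14.44 at the median and 14.59 at the highest of the 8 animals, with a mean of 14.40 ± 0.18 (SD, n = 8). HSD3B1, which turns pregnenolone into progesterone, averaged 14.60 ± 0.19 (SD, n = 8). Its probe set is of a kind whose probes may bind other transcripts too, so related transcripts may share the signal. FDXR, the reductase that feeds FDX1, averaged 13.25 and had the smallest SD on the list, 0.08. For CYP11A1 the low value was replicate 3, and the other 7 animals lay within 14.42 to 14.59.

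The branch points were less uniform. CYP17A1, which makes the 17-hydroxylated precursors of cortisol and androgens, gave 12.41, 12.94, 12.14, 13.05, 13.24, 12.70, 13.07 and 12.71 in replicates 1 to 8. The 4 low-spike animals were all higher than the 4 high-spike animals, and the groups did not overlap. CYB5A, the cytochrome b5 that favours the androgen branch of CYP17A1, ran from 10.12 in replicate 2 to 11.90 in replicate 3, a 3.44-fold range, with a median of 11.24. HSD11B2, which inactivates cortisol to cortisone, had the largest SD on the list, 0.63. Its lowest value was 11.09 in replicate 6 and its highest 13.16 in replicate 5, a 4.19-fold range. HSD11B2 and CYB5A were the 2 of the 14 genes in the top 10% by SD, a class that holds 10% of all genes with a mean of 8 or more.

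Most of the remaining measured enzymes were moderately bright. HSD17B4 averaged 12.23, HSD17B10 11.69 and HSD17B12 11.32; these dehydrogenases act on fatty acids as well as on steroids. POR, the electron donor of CYP17A1, averaged 10.95, and HSD11B1, which regenerates cortisol from cortisone, 9.76. TSPO, an outer mitochondrial membrane protein once proposed as a cholesterol channel, averaged 9.03. SULT2A1, which adds sulfate to androgens, averaged 5.38 and AKR1C1 4.45, both under the level of 8 and varying with SDs of 1.57 and 1.52. Detection calls were not used here, so these low values are not shown to be signal above background.

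**Figure D2:**
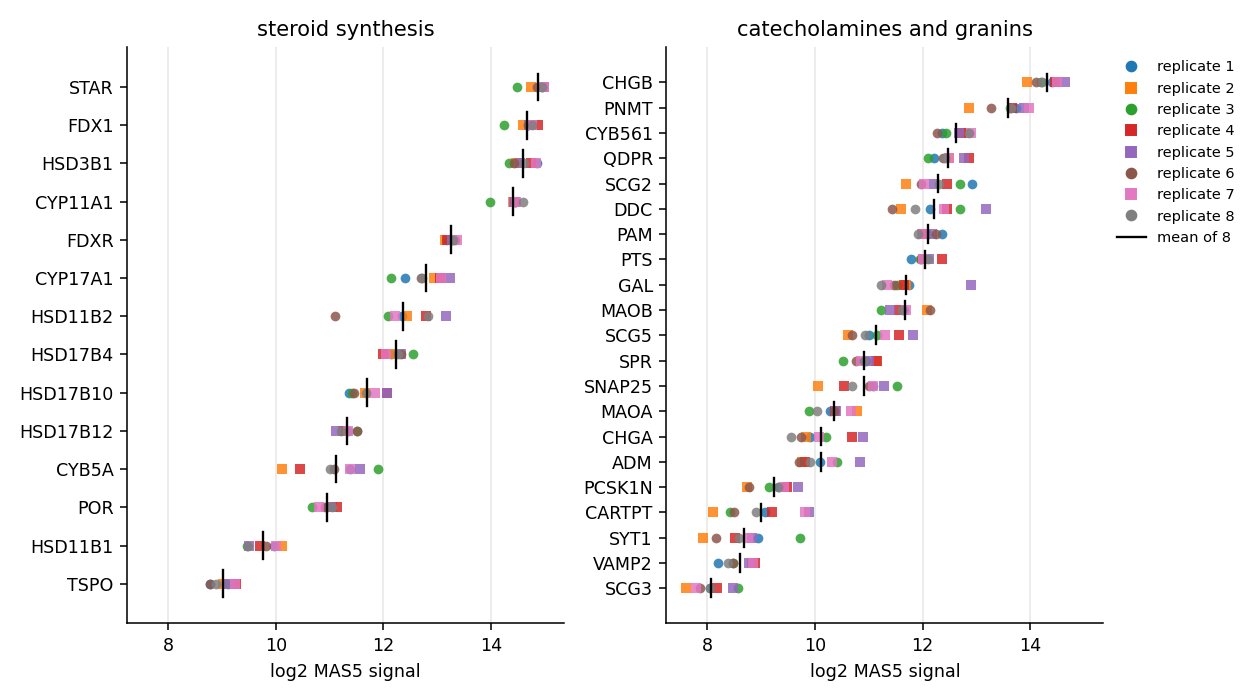
Log2 MAS5 signal of genes with a mean of 8 or more, for steroid synthesis (left) and for catecholamine synthesis, storage and neuropeptides (right), 1 point per animal and a bar at the mean. The steroid genes span means of 9.03 to 14.86, with the widest spread at HSD11B2 and CYB5A; on the right GAL has replicate 5 alone at 12.90.

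The ACTH pathway was measured at its receptor complex, its kinase and its transcription factors. MRAP, the accessory protein that carries the ACTH receptor to the cell surface, averaged 12.86 ± 0.38 (SD, n = 8), and MC2R, the receptor itself, averaged 8.50 ± 0.35 (SD, n = 8). MC2R lay between 7.96 and 8.99. PRKAR1A, the regulatory subunit of protein kinase A, averaged 12.86, and its catalytic subunits PRKACB and PRKACA averaged 10.50 and 8.78. NR5A1 (steroidogenic factor 1), the nuclear receptor that activates the steroid enzymes, averaged 9.91 ± 0.44 (SD, n = 8), and NR0B1 (DAX1), which represses them, averaged 9.29. GATA6, a transcription factor of the cortex, averaged 11.64 and INHA, the inhibin alpha subunit, 9.43. Of the 20 measured genes of this list, 12 had a mean of 8 or more and 2 lay in the top 10% by signal.

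Markers of the outer zone of the cortex, the zona glomerulosa that makes aldosterone, were also bright. Of 18 entries 5 were measured, and all 5 had a mean of 8 or more. KCNJ5, the potassium channel that sets the membrane potential of these cells, averaged 12.90, DAB2 12.78 and AGTR1, the angiotensin II receptor, 11.57. AGTR1 was 11.52 to 11.77 in 7 animals and 11.13 in replicate 5. VSNL1, a calcium sensor, varied most of the 5, from 9.24 in replicate 1 to 11.00 in replicate 4.

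Cholesterol supply had bright genes for uptake. SCARB1, the receptor that takes cholesteryl esters from high-density lipoprotein, averaged 14.21 ± 0.20 (SD, n = 8). NPC2 and NPC1, which carry cholesterol out of lysosomes, averaged 13.98 and 12.96, and LIPA, the lysosomal lipase, 13.07. Of the 23 measured genes of uptake, storage and transport, 19 had a mean of 8 or more and 5 lay in the top 10% by signal.

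Cholesterol synthesis from acetate had a median SD of 0.36, against 0.24 over all genes with a mean of 8 or more. All 11 measured genes had a mean of 8 or more and 4 were in the top 10% by signal, led by MSMO1, a sterol demethylating enzyme, at 13.05. The list mean was 10.16 in replicate 1, 10.49 in replicate 2, and 10.75 to 11.02 in the other 6 animals. Replicate 1 was the lowest animal for 8 of the 11 genes, among them FDPS, the farnesyl diphosphate synthase, with 11.65 against 12.23 to 12.72 elsewhere. Squalene synthase (FDFT1) gave 11.46, 11.47, 11.84, 11.75, 11.99, 12.08, 12.10 and 12.10 in replicates 1 to 8, so replicates 1 and 2 were low there too. SCARB1, in contrast, was 14.23 and 14.14 in those animals, within the range of the others. The animal numbers of replicates 1 and 2 share a first digit, whose meaning the labels do not give.

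Medulla markers were bright in all 8 samples. Of the chromaffin cell markers, 9 of 20 were measured and 9 of 9 had a mean of 8 or more, with a list median of 12.28. CHGB, a chromogranin of the secretory granule, averaged 14.31 ± 0.23 (SD, n = 8), and PNMT, the enzyme that converts noradrenaline to adrenaline, 13.58 ± 0.36 (SD, n = 8). TH and DBH, the other enzymes that define these cells, were not analysed here. Markers of tissues next to the adrenal gland were low: 7 of 8 measured kidney and liver genes had means of 4.15 to 5.85, and the exception, HP, is described with the variable genes.

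Catecholamine synthesis and storage had 11 measured genes, all with a mean of 8 or more and 5 in the top 10% by signal. CYB561, the granule cytochrome that regenerates ascorbate, averaged 12.62, and DDC, the decarboxylase that makes dopamine, 12.22 ± 0.58 (SD, n = 8). QDPR, PTS and SPR, which make or recycle the tetrahydrobiopterin that tyrosine hydroxylation needs, averaged 12.47, 12.04 and 10.91. MAOB and MAOA, which break amines down, averaged 11.67 and 10.35. DDC ranged from 11.43 in replicate 6 to 13.18 in replicate 5. PNMT was lowest in replicate 2, at 12.86, and lay within 13.27 to 13.98 in the other animals.

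Neuropeptide and granule protein genes were often highest in 1 animal and often lowest in another. Of the 17 measured genes 10 had a mean of 8 or more. Replicate 5 was the highest animal for 7 of these 10. Replicate 2 was the lowest for 6 and replicate 8 for 3, among them GAL and CHGA. Being highest in replicate 5 was not particular to this list, since it also held for 27 of 58 respiratory chain and 15 of 33 proteasome genes. GAL, the neuropeptide galanin, gave 11.75, 11.68, 11.52, 11.65, 12.90, 11.47, 11.34 and 11.23 in replicates 1 to 8, so replicate 5 alone was high. CHGA, chromogranin A, was 10.89 in replicate 5, 10.69 in replicate 4 and 9.56 to 10.21 in the others. CARTPT, the precursor of the CART peptide, ran from 8.11 in replicate 2 to 9.89 in replicate 5. NPY (4.40), SST (2.45), PDYN (5.16) and ADCYAP1 (5.23), all neuropeptide precursors, had means below 8. The list mean was 11.36 in replicate 5 and 10.40 in replicate 2. The share of medulla in each sample was not tested.

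Mitochondria were seen through the nuclear genes of the respiratory chain. The 60 measured genes had a median of 12.60, and 44 of them lay in the top 10% by signal, where 10% of all named genes lie. ATP5E, ATP5G3 and ATP5B, subunits of ATP synthase, averaged 14.10, 14.08 and 14.06, and COX6A1, a subunit of cytochrome c oxidase, 14.04. None of the 26 entries on the list of genes encoded by mitochondrial DNA was measured by a named probe set. The tricarboxylic acid cycle, which feeds the chain, had 18 genes with a median of 11.16, led by citrate synthase (CS) at 13.24. Glycolysis had 15 genes with a median of 10.12, led by GAPDH at 14.76.

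Oxygen-handling and chaperone genes were bright as well. Of 32 measured antioxidant genes 19 lay in the top 10% by signal, with a median of 12.43. PRDX3, the mitochondrial peroxiredoxin, averaged 14.42, SELENOP, the selenium carrier, 14.22 and SOD1, the cytosolic superoxide dismutase, 14.01. GPX4, which reduces lipid peroxides, averaged 12.94. Of 24 measured heat shock and chaperone genes 14 lay in the top 10%, and their median SD of 0.17 was below the 0.24 of all genes with a mean of 8 or more. HSPA5, the chaperone of the endoplasmic reticulum, averaged 13.85 ± 0.09 (SD, n = 8). The 33 proteasome genes had a median of 11.70, and 15 lay in the top 10%.

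The mean signal of the steroid synthesis enzymes was compared with that of the respiratory chain genes across animals. Both list means were lowest in replicate 3 (12.22 and 12.28) and highest in replicate 5 (12.50 and 12.69). Over the 8 animals Pearson's r was 0.865 (exact permutation p = 0.00823, two-sided), and Spearman's rho was 0.905 (exact permutation p = 0.00456). With Benjamini-Hochberg adjustment over the 8 pairs of lists examined, these became 0.0659 for r, which misses 0.05, and 0.0365 for rho. Without the 2 animals farthest from the median, replicates 3 and 5, r was 0.725 (exact permutation p = 0.10), so the relation is not shown without them. With values centred within the spike-in sets r was 0.781 (exact permutation p = 0.0503, adjusted 0.403). The value also depended on the scaling: r was 0.580 after quantile normalization (exact permutation p = 0.131, adjusted 0.525) and 0.954 after median centring (exact permutation p = 0.00114, adjusted 0.00913). All arrays had the same trimmed mean, but their bright ends differed in the direction of both lists. An upper percentile of log2 signal was lowest in replicate 3, at 13.33, and highest in replicates 4 and 5, at 13.71. The array median did not follow the lists, with its lowest value, 6.94, in replicate 4 and its highest, 7.19, in replicate 6. The part of these array differences in the relation was not tested.

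The other 7 pairs had r between -0.101 and 0.516, with rho between -0.238 and 0.595. The adjusted values from the exact permutation test were 0.7495 or higher for r and 0.529 or higher for rho. The pair with the highest value was chromaffin cell markers with steroid synthesis enzymes (r = 0.516, exact permutation p = 0.187; rho = 0.595, exact permutation p = 0.132). Without replicate 3 that r was 0.894 (exact permutation p = 0.00813, adjusted 0.0651), and without replicates 2 and 6, the animals farthest from the median, it was 0.197.

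**Figure D3:**
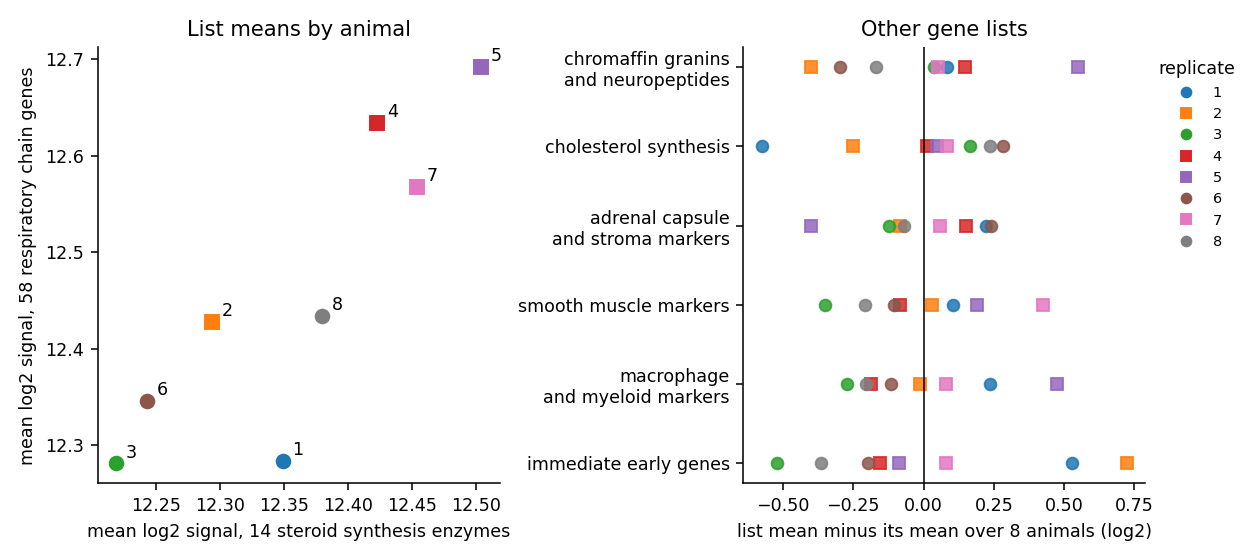
Left, the mean log2 signal of 58 respiratory chain genes against that of 14 steroid synthesis enzymes, 1 labelled point per animal; replicate 3 is lowest and replicate 5 highest on both axes. Right, the mean of 6 other gene lists in each animal as a difference from the mean of 8; circles mark the high-spike set and squares the low-spike set.

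Variation between animals was small for most genes. The median SD of the 4241 genes was 0.24, and 1364 of them (32.2%) had an SD under 0.2, while 12 had an SD of 1 or more. The 30 genes with the largest SD ran from 1.505 down to 0.80, and the next gene in rank lay at 0.79. Of the 30, 3 lay in the top 10% by mean signal, and 16 had a mean under 9. The genes with the smallest SD were AP2B1 (0.04), an adaptor subunit of clathrin-coated vesicles, LONP2 (0.05), a peroxisomal protease, and ALDH9A1 (0.05), an aldehyde dehydrogenase. AP2B1 lay between 10.53 and 10.65 in the 8 animals. Also among the 10 steadiest were SERBP1, LAMB1, GOT1, SDE2, KDSR, YIPF5 and PSMC2, with SDs of 0.06.

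**Figure D4:**
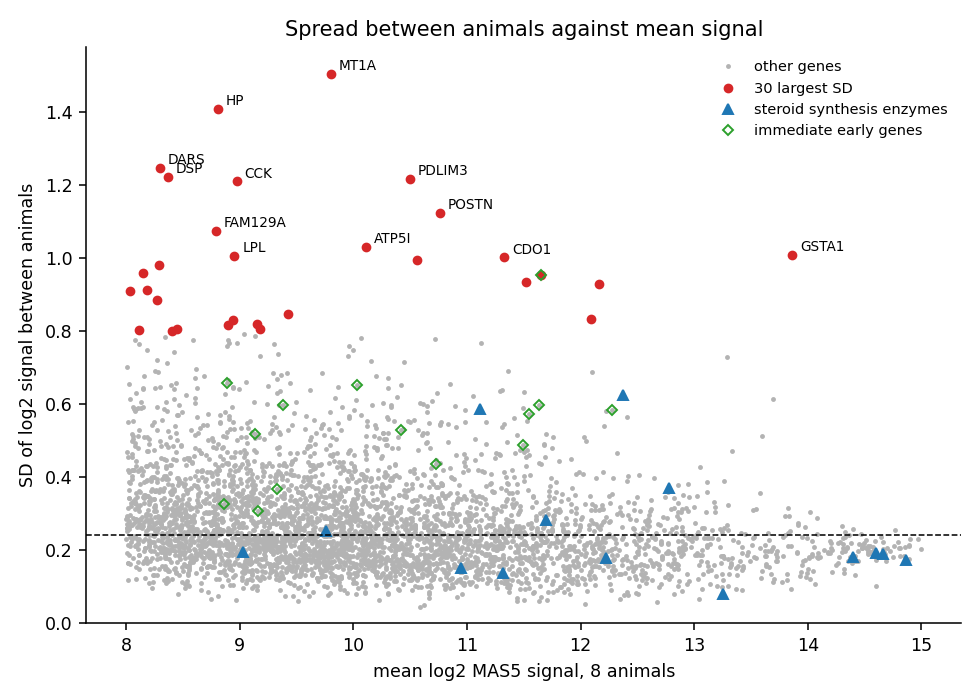
SD of log2 signal between the 8 animals against mean log2 signal, for the 4241 genes with a mean of 8 or more; the dashed line is the median SD of 0.24. The 30 genes with the largest SD are red, the 12 with an SD of 1 or more carry names, and the steroid synthesis enzymes and immediate early genes have their own symbols.

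MT1A had the largest SD of the 4241 genes. It is a metallothionein, a small protein that binds zinc and copper and is induced by metals and glucocorticoids. MT1A gave 7.92, 9.94, 7.32, 11.40, 10.01, 11.38, 9.65 and 10.82 in replicates 1 to 8, an SD of 1.505 and a 16.9-fold range. MT-2B gave 10.85, 12.28, 10.79, 12.81, 12.20, 12.94, 12.22 and 12.65, an SD of 0.83. Replicates 1 and 3 were the lowest for both, and replicates 4, 6 and 8 the highest. The MT1A probe set is of a kind whose probes match more than 1 transcript, so related metallothioneins may share its signal. TSC22D3 (GILZ), a glucocorticoid-induced leucine zipper protein, was also lowest in replicates 3 and 1 (12.65 and 12.74) and highest in replicates 8 and 4 (13.15 and 13.11), over a narrower range. FKBP5, a chaperone of the glucocorticoid receptor, differed in order, with its lowest value, 9.87, in replicate 2 and its highest, 11.04, in replicate 3. Of the 17 genes of that list with a mean of 8 or more, 5 were in the top 10% by SD.

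HP, haptoglobin, the plasma protein that binds free haemoglobin, had an SD of 1.41. Its signal was 10.72, 10.55 and 10.14 in replicates 5, 6 and 7 and 7.29 to 8.16 in the other 5 animals, with no value between. The other liver genes were low but not alike in replicate 6. ALB, albumin, was 9.36 there against 4.59 to 5.70 in the other 7 animals, TF (transferrin) 8.32 against 4.50 to 6.33, and FGB (fibrinogen beta) 7.82 against 4.18 to 5.66. Replicate 6 was the highest animal for 7 of the 8 measured genes of the kidney and liver list, and replicate 5 for HP. Replicates 5 and 7 had ALB at 5.53 and 5.44. The source of these transcripts was not tested.

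For several variable genes 1 animal lay apart from the rest. GSTA1, a glutathione transferase abundant in steroid-making cells, was 11.43 in replicate 1 and 13.70 to 14.40 in the other 7. Its other 2 probe sets were also lowest in replicate 1, at 10.99 against 13.84 to 14.72 and at 5.52 against 9.04 to 13.72. PDLIM3, a protein of the actin cytoskeleton, was 7.78 in replicate 8 and 10.57 to 12.09 elsewhere. FOLR1, a folate receptor, was 7.34 in replicate 3 and 8.98 to 10.01 elsewhere.

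Others were spread over several animals. CCK, the peptide cholecystokinin, ran from 6.66 in replicate 1 to 10.14 in replicate 4. DSP, desmoplakin of cell junctions, ran from 6.16 in replicate 6 to 10.43 in replicate 8. LPL, lipoprotein lipase, was 7.25 in replicate 3, 7.91 in replicate 1 and 8.24 in replicate 7, and 9.32 to 9.88 in the other 5 animals. CDO1, cysteine dioxygenase, was 9.68 in replicate 8, 9.88 in replicate 3 and 11.51 to 12.34 in the rest. ATP5I, an ATP synthase subunit, ran from 9.13 in replicate 8 to 11.78 in replicate 6 with an SD of 1.03, where the median SD of the 58 respiratory chain genes with a mean of 8 or more was 0.19. Its second probe set was dim, at a mean of 3.63. SPINK5, a protease inhibitor, was 9.07 and 9.08 in replicates 3 and 5 and 10.20 to 11.51 elsewhere.

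**Figure D5:**
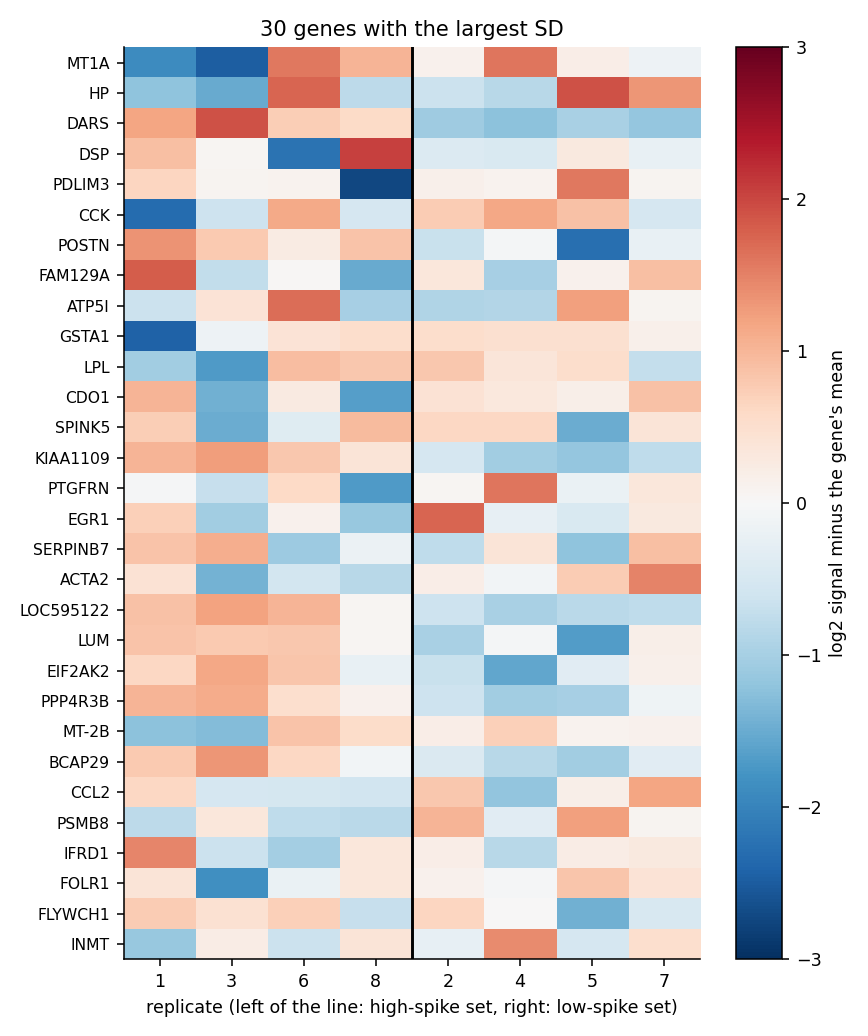
The 30 genes with the largest SD (rows) in the 8 animals (columns), as log2 signal minus the gene's mean, with the high-spike set left of the line and the low-spike set right of it. DARS and KIAA1109 are above their mean in the 4 high-spike animals and below it in the 4 low-spike animals, while MT1A and GSTA1 are not split that way.

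Many genes also differed between the technical sets. Limma compared the high-spike with the low-spike animals over 9165 probe sets with a mean of 8 or more. At a Benjamini-Hochberg adjusted p under 0.05, 1208 (13.2%) were higher and 485 (5.29%) lower in the high-spike set. Of the calls, 71.4% were thus higher, against 60.8% after quantile normalization and 41.5% after median centring, so the balance of directions depends on scaling. Among the 4241 named genes 344 were higher (8.11%) and 295 lower (6.96%).

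Of the 30 most variable genes 8 were higher in the high-spike set and 0 lower. This count is a description, since the SD that chose them includes the difference between sets. In 6 of the 30 every high-spike animal lay above every low-spike animal, as in 9.64% of the 4241 genes, and the reverse held for 13.5% of the 4241. DARS, the aspartyl-tRNA synthetase, averaged 9.41 in the high-spike and 7.19 in the low-spike set, a difference of 2.21 ± 0.25 (SE, limma adjusted p = 0.00153). The second DARS probe set did not follow it, with 6.81 to 7.66 in the high-spike and 6.86 to 7.92 in the low-spike animals. KIAA1109 differed by 1.74 ± 0.20 (SE, limma adjusted p = 0.00179). POSTN, periostin of connective tissue, differed by 1.61 ± 0.42 (SE, limma adjusted p = 0.0265), and LUM, the proteoglycan lumican, by 1.26 ± 0.36 (SE, limma adjusted p = 0.0369). When the sets were removed by centring, 21 of the 30 genes remained in the list. The 9 that left were DARS, KIAA1109, ACTA2, LOC595122, LUM, EIF2AK2, PPP4R3B, BCAP29 and PSMB8, and MT1A, HP, PDLIM3 and GSTA1 were among those that remained.

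Hormone genes are read against the shares of all named genes, 8.11% higher and 6.96% lower. Of the 14 steroid synthesis enzymes 0 were higher and 2 lower in the high-spike set, and of the 9 chromaffin cell markers 0 were higher and 1 was lower. The 2 enzymes were CYP17A1 (12.49 against 13.08, limma adjusted p = 0.0236) and HSD17B10 (11.48 against 11.91, limma adjusted p = 0.0455). NR5A1 was also lower, at 9.57 against 10.25 (limma adjusted p = 0.0238). Of the 58 respiratory chain genes 0 were higher and 9 lower, of the 33 proteasome genes 1 was higher and 6 lower, and of the 59 ribosomal protein genes 0 were higher and 1 lower. These counts depend on scaling. After quantile normalization 0 of the 14 steroid enzymes were called, and the lower calls were 4 of 58, 4 of 33 and 0 of 59 for the other lists in that order. After median centring they were 2 of 14, 24 of 58, 17 of 33 and 9 of 59, when 738 of the 4241 named genes were lower and 238 higher. The actin ratio was higher in the low-spike set and the GAPDH ratio averaged higher in the high-spike set, and the part of RNA length in these differences was not tested.

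Immediate early genes, which cells switch on within minutes of a stimulus, were often among the variable genes. Of the 14 with a mean of 8 or more, 10 lay in the top 10% by SD, against 10% of all such genes, and their median SD was 0.55. Replicates 1 and 2 held both of the highest values for 10 of the 14. EGR1, a zinc-finger transcription factor, was 12.37, 13.40, 10.60, 11.40, 11.20, 11.77, 11.94 and 10.50 in replicates 1 to 8, a 7.46-fold range. Of its other 2 probe sets, 1 was highest in replicates 1 and 2 (11.18 and 10.60) and the other in replicates 2 and 7 (10.92 and 9.84), with replicate 1 at 9.70. DUSP1, a phosphatase of MAP kinases, was 13.27 and 13.03 in those animals and 11.72 to 12.27 in the others. FOS, a subunit of the AP-1 factor, was 12.05 and 12.06 there and 10.76 to 11.74 in the others, and IER2 11.21 and 11.18 against 9.80 to 10.52. JUN, the partner of FOS, did not follow, with its highest value, 12.33, in replicate 5. The list mean was 10.85 and 11.05 in replicates 1 and 2 and 9.80 to 10.40 in the other 6 animals. These 2 animals are in different spike-in sets. Their animal numbers share a first digit, whose meaning the labels do not give. Between the sets, 0 of the 14 genes were higher and 1 (JUN) lower, against 8.11% and 6.96% of all named genes.

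Support cells were seen through their markers. MGP, an inhibitor of calcification made by stromal and vascular cells, averaged 14.40 and SPARC, a matrix protein, 13.78, and 12 of 15 measured capsule and stroma genes had a mean of 8 or more. The list mean was lowest in replicate 5, at 10.20, where POSTN was 8.49 and LUM 6.35, and lay within 10.48 to 10.84 in the others. POSTN and LUM were the only 2 of the 12 genes that were lowest in replicate 5. Replicate 3 was the lowest animal for 6 of the 12 and replicate 8 for 3. Smooth muscle genes were led by ACTA2, smooth muscle actin, from 10.75 in replicate 3 to 13.65 in replicate 7. TPM2 and TAGLN, which act with it in contraction, were also highest in replicate 7, at 11.69 and 11.19, and replicate 7 was the highest animal for 5 of the 10 genes. Of 13 endothelial genes 9 had a mean of 8 or more, with PECAM1 at 11.29 and CDH5 at 10.76.

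Immune and blood cells were fainter. Of 16 macrophage and myeloid genes 9 had a mean of 8 or more, and replicate 5 was the highest animal for 5 of the 9. C1QC, a chain of complement C1q, was 12.25 there and 10.79 to 11.43 elsewhere. Of 12 T and B cell genes 2 reached a mean of 8, CD247 at 9.53 and JCHAIN at 8.05, and CD3D, CD3E and CD3G, which define T cells, had means of 5.85 to 6.77. HBB, beta globin, was 9.60 in replicate 3 and 8.23 to 9.06 in the others, and 1 of 5 red blood cell genes reached a mean of 8. Skeletal muscle was represented by 1 of 9 genes above that level, CKM at 8.91, with MYH2, ATP2A1, TNNC2, TNNI2 and TNNT3 at 1.25 to 2.90. Of 8 neuron and Schwann cell genes 5 reached it, with UCHL1 at 12.47 and STMN2, which chromaffin cells also express, at 12.60. Of 10 adipocyte genes SCD (11.54), CFD (10.59) and LPL (8.95) reached it, while ADIPOQ, leptin (LEP) and PPARG, which define fat cells better, had means of 5.20, 6.57 and 5.65.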

How the data were processed

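RNA of adrenal glands had been hybridised to Affymetrix Porcine Genome Arrays, 1 per animal. The authors deposited intensity values, linear MAS5 signals. The submitters' processing notes name Expression Console 1.1.1 and MAS5, without a version for the latter. Each deposited column had a mean of 500.1 once its top and bottom 2% were dropped, which is a scaling by 1 factor per array. Here the 8 low stress columns were taken to log2 and 124 control probe sets left out. Of the 23999 kept, 10069 had 1 symbol, 198 several and 13732 none; 9961 matched the reference gene table (Sscrofa11.1, names only) and 0 symbols changed. Each gene was represented by its brightest probe set. Levels and SDs are descriptions without a test. So are counts of the genes of a list that were highest or lowest in an animal, for which no share over all genes was computed. The spike-in sets were split at the widest gap in the dap signal and tested by limma (version 3.58.1, under R 4.3.3; moderated, two-sided, Benjamini-Hochberg adjusted p under 0.05), whose p-values measure only the spread between these animals. Correlations of list means used exact permutation, two-sided, over 8 pairs, with 40320 orders of the 8 animals. For values centred within the spike-in sets, animals were permuted only within their set, in 576 orders. Where animals were left out, all orders of the remaining animals were used. A list mean held the genes of the list with a mean of 8 or more, and genes in both lists of a pair were left out. Named are the 25 brightest genes, the 30 with the largest and 10 with the smallest SD, and some adrenal genes. So are all measured genes of the steroid, catecholamine, neuropeptide and Y-linked lists, and up to the 5 brightest of the other lists. Further genes of the lists, such as TF, GPX4, SOD1, TAGLN, IER2 and the T cell and fat cell markers, were chosen after their values were seen. Members and the 35 gene lists were chosen with earlier results of these data known. Alternatives covered scaling (median centring or quantile normalization), adding 24.2 to the signal, averaging all probe sets of a gene, other floors, other measures of spread, other fits and leaving out each animal. Dixon's ratio, with a critical value of 0.526 for 8 values, picked out single animals. On simulated data for the spike-in comparison (9165 probe sets, 5 simulations), the fit found 28.1% of the differences made at 0.5 log2 units, 81.8% at 1 and 96.1% at 1.5, with 29 false calls among 44825. The simulated probe sets varied independently, with no effect shared by the probe sets of an array. The real arrays do share such effects, so these rates need not hold for them. A planned search of promoter motifs was not run here. Python 3.11.15 and matplotlib 3.10.9 made the figures.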

Additional observations from a re-analysis of the deposited data

Results flagged for a closer look

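Of 269 values examined over the 8 animals, named genes and list means, 27 (10%) had 1 animal apart from the rest by Dixon's ratio. Chance gives about 1 in 20 for values that are independent and not selected. Many of these genes were chosen by signal or SD, and all share the same 8 arrays. The 10% therefore cannot be set against that rate. Replicate 3 held 15 of the 27, replicate 5 held 6, and replicates 1, 6 and 8 held 2 each. After quantile normalization, an alternative chosen after seeing the data, 13 still stood apart: 2 of replicate 3 (NNT and FOLR1), 6 of replicate 5, 2 of replicate 1, 2 of replicate 6 and 1 of replicate 8 (PDLIM3).

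In replicate 3, bright genes were low: EF1ALPHA at 14.55, UBB at 14.44, A2M at 14.42, RPL13A at 14.41, HSPD1 at 14.38, ZC3H10 at 14.34, SAT1 at 14.32, RPS20 at 14.31, GAPDH at 14.28, TPT1 at 14.28, B2M at 14.26, FDX1 at 14.24 and CYP11A1 at 13.97. FOLR1 was also low there, at 7.34, and NNT, a mitochondrial source of NADPH whose loss impairs the cortex, was high, at 11.07 against 10.41 to 10.71.

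Replicate 5 had high values of GAL (12.90), C1QC (12.25), S100B, a glial marker (10.74 against 9.37 to 9.99), and GBP1, an interferon-induced GTPase (9.88 against 8.77 to 9.13). Its values of AGTR1 (11.13) and AKR1C1 (0.929) were low; the latter is a dim probe set. Replicate 6 had high ALB (9.36) and FGB (7.82). Replicate 1 had low GSTA1 (11.43) and FDPS (11.65). In replicate 8 PDLIM3 was low (7.78), and GOT1, the cytosolic aspartate aminotransferase, was high (11.58) although its SD was among the 10 smallest.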

How the results depend on the processing

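Means moved little: of 723 values of named genes under other scalings and the pseudocount, 714 moved by less than 1 SD, and the 9 that moved more were dim genes under the pseudocount. The choice of probe set mattered more. When all probe sets of a gene were averaged, 13 of the 25 brightest genes were shared, 6 genes had an SD of 1 or more in place of 12, and the list medians were 11.52 for steroid synthesis and 10.88 for chromaffin cell markers. The list of 30 variable genes shared 17 with a floor of 7, 14 with a floor of 9 and 17 by interquartile range; leaving out an animal shared 22 to 27. Genes with an SD of 1 or more numbered 23 and 6 with those floors and 20 within pairs of animals that share the first digit of their number. The fit between spike-in sets called 150 probe sets with no floor and 2799 at an adjusted p under 0.1. Leaving out an animal gave 840 to 2228 calls against 1693, with 871, 840, 843, 999 and 986 without replicates 1, 3, 4, 5 and 6.

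Several correlations that missed the threshold changed sign. Steroid with cholesterol synthesis was 0.0107 under quantile normalization, 0.189 under median centring, 0.00248 within sets, and -0.171 to 0.149 without 1 animal. Capsule with smooth muscle was 0.0799 under median centring, 0.245 within sets and -0.197 to 0.339 without 1 animal. Macrophage with T and B cell markers, of which only 2 genes were used, was 0.00489 with the pseudocount and 0.00186 within sets. Without 1 animal it was -0.332 to 0.454. Red cell markers, here the single gene HBB, with macrophage markers gave 0.186 within sets and -0.290 to 0.545 without 1 animal. Chromaffin with cholesterol synthesis ran from -0.201 to 0.322 and immediate early with glucocorticoid-induced genes from -0.183, without replicate 3, to 0.475. Steroid with respiratory chain genes was 0.954 under median centring and 0.793 to 0.949 without 1 animal; the highest, without replicate 1, passed adjustment. The cause was not tested in these cases. No detection calls or replicate arrays of 1 gland were used, so measurement error and differences between animals cannot be told apart. Replicate numbers only name the animals. The first digit of the animal number, whose meaning the labels do not give, makes 4 pairs with 1 array of each spike-in set. The pairs are replicates 1 and 2, 3 and 4, 5 and 6, and 7 and 8. A fit with the digit as a block, chosen after seeing the data, called 835 probe sets, 813 of them shared with the 1693.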

Other observations

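Antigen presentation genes varied moderately among the animals. Of 17 measured genes 15 had a mean of 8 or more; replicate 5 was the highest for 7 of them and replicate 7 for 5, while replicate 3 was the lowest for 9. SLA-DRA, a class II chain, was 11.31 in replicate 6 and 11.46 in replicate 3, and 12.10 to 12.44 in the others. PSMB8, a subunit of the immunoproteasome, was 10.14 and 9.92 in replicates 5 and 2 and 8.09 to 9.24 in the others. Among interferon-stimulated genes, 8 of 18 had a mean of 8 or more. MX1 was 10.25 in replicate 5 and 8.73 in replicate 1. EIF2AK2, the RNA-activated kinase, was 9.44 in replicate 3 and 6.72 in replicate 4.

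Proliferation was faint: PCNA, the polymerase clamp, was the 1 of 16 cell cycle genes with a mean of 8 or more (9.84). Among growth factors VEGFA, which drives capillary growth, averaged 11.50 and IGF2 8.17. Of 15 collagens 6 reached a mean of 8, led by COL15A1, a collagen of vessel basement membranes, at 11.43. EIF1AY, a Y-linked gene, was 9.75 to 10.60 in replicates 2, 3, 5 and 8 and -0.04 to 2.91 in the others. Each spike-in set held 2 animals of either kind. The mean of EIF1AY was 5.65, under the floor of 8, so its SD of 4.70 is not in the ranking by SD. The labels give no sex, and the part of sex in the spread between animals was not tested.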
